A study of Caenorhabditis elegans with 2 samples.

Results

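The genes described here are 10 genes of fatty acid synthesis and desaturation in Caenorhabditis elegans: fasn-1, pod-2, sbp-1 and fat-1 to fat-7. They were taken by symbol from the Ensembl gene models, where each of the 10 was found, out of 19973 protein-coding genes on the nuclear chromosomes. Sites of the nuclear receptor NHR-23, mapped by chromatin immunoprecipitation and sequencing (ChIP-seq), were described within 5 kb of each gene. The animals were whole L3 larvae of strain OP43, of mixed sex and of unknown age in hours. Their genotype is unc-119(ed3) III; wgIs43, where wgIs43 is an insertion targeting nhr-23, and the receptor was studied as an eGFP fusion. All the animals carry the mutation and the transgene, there are 2 biological replicates of this 1 group, and a control named in the labels is not used here. Whole larvae were used, so a site cannot be placed in a tissue.

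NHR-23 is a receptor of the ROR family that is needed for the larval molts. Fatty acid synthesis starts when acetyl-CoA carboxylase makes malonyl-CoA, which fatty acid synthase joins into saturated chains. Desaturases then place double bonds in these chains, one kind of enzyme for each position, and so make the monounsaturated and polyunsaturated fatty acids of membranes and stored fat. In this worm pod-2 encodes the carboxylase, fasn-1 the synthase, sbp-1 a homologue of the lipid regulator SREBP, and fat-1 to fat-7 the desaturases.

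The DNA under the summits, which are the points of highest enrichment within each peak, is printed first for 10 sites on which the account turns. Each window is 101 bases centred on a summit, is read from the RefSeq genome of assembly WBcel235 (ce11), and is written 5′ to 3′ on the strand of the gene. Capitals mark AGGTCA or GGGTCA, the hexamers that receptors of the ROR family are known to bind, together with GAGAGA and with GATAA, the core recognised by GATA factors of the worm intestine. A reverse complement, such as TTATC for GATAA, is capitalised too. The first 3 windows hold the strongest sites near desaturase genes, those of pod-2 hold its sites within the gene, those of fat-6 show a gene with sites on both sides, and the last is the only site of fat-5.
fat-2 upstream summit, chrIV:13322601-13322701, plus strand: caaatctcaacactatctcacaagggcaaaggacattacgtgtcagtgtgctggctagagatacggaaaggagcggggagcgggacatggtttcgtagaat
fat-1 downstream summit, chrIV:13318868-13318968, plus strand: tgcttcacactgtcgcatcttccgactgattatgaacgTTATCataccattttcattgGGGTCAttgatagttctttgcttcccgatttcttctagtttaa
fat-3 intron summit, chrIV:9803697-9803797, plus strand: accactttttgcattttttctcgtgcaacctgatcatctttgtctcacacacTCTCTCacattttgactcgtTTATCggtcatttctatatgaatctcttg
pod-2 intron summit with the stronger signal, chrII:1143341-1143441, plus strand: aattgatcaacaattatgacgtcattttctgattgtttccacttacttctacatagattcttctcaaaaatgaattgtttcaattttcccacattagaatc
pod-2 intron summit with the weaker signal, chrII:1142280-1142380, plus strand: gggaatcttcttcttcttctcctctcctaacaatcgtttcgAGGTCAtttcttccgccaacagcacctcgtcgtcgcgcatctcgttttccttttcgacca
fat-6 start summit, chrIV:11915915-11916015, minus strand: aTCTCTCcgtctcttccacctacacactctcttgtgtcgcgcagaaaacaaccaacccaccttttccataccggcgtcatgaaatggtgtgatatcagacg
fat-6 intron summit, chrIV:11914855-11914955, minus strand: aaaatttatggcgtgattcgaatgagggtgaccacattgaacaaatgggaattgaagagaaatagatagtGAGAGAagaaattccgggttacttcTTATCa
fat-6 nearer downstream summit, chrIV:11909973-11910073, minus strand: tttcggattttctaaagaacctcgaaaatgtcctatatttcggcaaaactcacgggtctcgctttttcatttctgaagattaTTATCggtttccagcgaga
fat-6 farther downstream summit, chrIV:11908907-11909007, minus strand: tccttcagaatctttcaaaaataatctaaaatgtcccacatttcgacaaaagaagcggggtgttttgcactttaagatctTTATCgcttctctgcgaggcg
fat-5 upstream summit, chrV:17723313-17723413, plus strand: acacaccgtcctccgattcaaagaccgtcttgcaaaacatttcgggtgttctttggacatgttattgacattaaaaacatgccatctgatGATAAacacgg

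Of the 10 genes, 8 had at least 1 summit of the authors' thresholded list within 5 kb of the gene, and sbp-1 and fat-7 had none. Over all protein-coding genes the share was 42.5%. These 8 genes held 18 distinct summits. The farthest of them were 4955 bp from fat-2 and 4735 bp from fat-6, and the only further summit within 10 kb, with a signal of 41.7 at rank 3996, was 8547 bp from fat-6. The 4 desaturases fat-1 to fat-4 shared sites in pairs: 2 summits were counted for both fat-1 and fat-2, and 1 for both fat-3 and fat-4, so the genes are not independent counts. There were 5 thresholded summits near fasn-1, 4 near pod-2, 4 near fat-6, 3 near fat-1, 2 near fat-2 and 1 each near fat-3, fat-4 and fat-5. A count of 4 or more was reached by 3 of the 10, against 2.74% of all genes. The windows differ in length, since fasn-1 spans 11175 bp and pod-2 15921 bp, against a median span of 2027 bp over all protein-coding genes. A window of the same length held on average over the genome 1.04 thresholded summits for fasn-1, 1.28 for pod-2 and 0.591 for fat-6, whose span is 1996 bp.

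**Figure D1:**
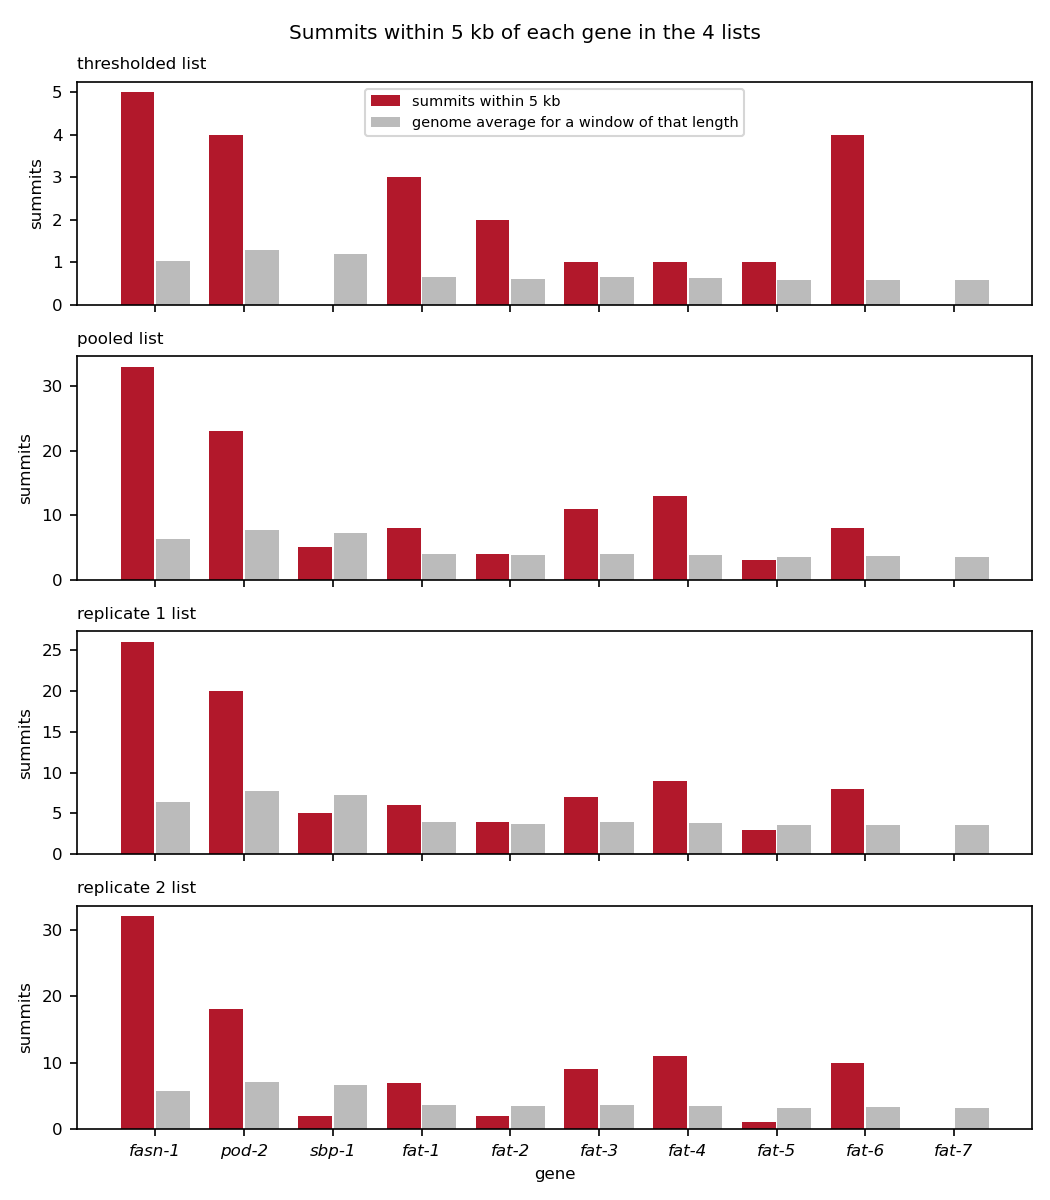
Number of summits within 5 kb of each gene (red bars, y axis) in the thresholded, pooled, replicate 1 and replicate 2 lists, beside the genome average for a window of the same length (grey bars), with genes along the x axis. The red bar is above the grey one in each list for fasn-1, pod-2, fat-1, fat-3, fat-4 and fat-6, and fat-7 has no red bar.

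Genes count as bound where the region around any annotated transcript start, 1500 bp before it and 500 bp after it, holds a summit of the thresholded list. By this rule 5 of the 10 genes were bound, fasn-1, pod-2, fat-2, fat-3 and fat-6, against 19.4% of all genes. With the most upstream start of each gene alone, 3 were bound, fasn-1, fat-2 and fat-6, against 18.3% of all genes. The calls of pod-2 and fat-3 thus rest on starts inside the gene. Many worm messages are trans-spliced, which removes their first bases, so the annotated starts are themselves uncertain. Of the 18 summits, 8 were intergenic, 9 lay in introns and 1 in coding sequence. The nearest annotated start belonged to 1 of the 10 genes at 11 summits and to another gene at 7.

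The strength of a site is given here as the authors' signal value and its rank, where rank 1 is the strongest peak of a list. In the thresholded list of 4944 peaks the signal ran from 34.2 to 967.1, with a median of 60.4. A summit ranked above the middle of this list lay within 5 kb of 5 genes, fasn-1 and fat-1 to fat-4, against 27.0% of all genes. Of the 18 summits, 6 ranked above the middle, and the strongest 3 stood at percentiles 95.3, 92.8 and 90.4 of the list. The median rank of the 18 was 3171, against 2472.5 at the middle of the list. Near these genes a few strong sites thus stood beside many of lower rank.

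Acetyl-CoA carboxylase, encoded by pod-2 (WBGene00004076, chrII:1136785-1152705, plus strand), commits acetyl-CoA to fatty acid synthesis. None of its 4 summits ranked above the middle of the list. Both summits inside the gene lay in intron 3 of its 10 introns, which is 3418 bp long. The stronger, at 1143391, had a signal of 46.3 in the thresholded list, rank 3515, and lay 6606 bp downstream of the most upstream start but 509 bp upstream of an internal start at 1143900. The weaker, at 1142330, had a signal of 40.7, rank 4095, and lay 1570 bp upstream of the nearest internal start, just outside the window used for calls. The nearest annotated start was that of W09B6.4, 1491 bp away, with the summit on its upstream side. The site held AGGTCA, as printed above. The other 2 summits, at 1134723 and 1134929, had signals of 34.8 and 41.2. They lay 2062 and 1856 bp upstream of pod-2, inside intron 2 of W09B6.4, a gene on the opposite strand that overlaps pod-2, and were likewise nearer to a start of W09B6.4 than to any of pod-2. Below the threshold, the pooled list had a summit at 1141918 with a signal of 30.7, in the same intron, and 1 at 1143921 with a signal of 20.4, which lay 13 bp downstream of an internal start.

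Fatty acid synthase, encoded by fasn-1 (WBGene00009342, chrI:8975366-8986540, minus strand), builds the saturated chain. Its strongest site, at 8987258, lay 718 bp upstream of the start between fasn-1 and F32H2.8. Its signal was 159 in the thresholded list, rank 355, with 79.0 in replicate 1's list and 83.6 in replicate 2's. The site held both AGGTCA and GATAA within 50 bp. A second site, 487 bp downstream of the start in intron 1, had a signal of 66.5, rank 2128, and another in the same intron, 1651 bp downstream, had 43.3, rank 3815. The site in intron 3, 2500 bp downstream of the start, had a signal of 75.2, rank 1749. A run of 4 thresholded sites therefore covered the upstream side and the first introns of the gene. The fifth, with a signal of 50.4, lay 141 bp past the 3′ end and 640 bp upstream of the start of F32H2.12, the gene that follows on the same strand. The pooled list had 33 summits within 5 kb of fasn-1, the most of the 10 genes, against an average of 6.34 for a window of that length. Several of the weaker ones fell in the coding sequence, with pooled signals of 25.3 at 8978182 and 22.4 at 8979076.

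Both fat-1, an omega-3 desaturase, and fat-2, the desaturase that turns oleic acid into linoleic acid, are on the plus strand of chromosome IV, at 13315644-13318811 (WBGene00001393) and 13323873-13326395 (WBGene00001394). Between them lay the strongest summit near any of the 10 genes, at 13322651. Its signal was 187 in the thresholded list, rank 235, with 84.5 and rank 262 in replicate 1's list and 104 and rank 232 in replicate 2's. The position is 1222 bp upstream of fat-2 and 3840 bp past the 3′ end of fat-1. None of the capitalised strings occurred within 50 bp of it. A second summit in this interval, at 13318918, lay 107 bp past the 3′ end of fat-1 and 4955 bp upstream of fat-2. It had a signal of 85.5, rank 1381, and held GGGTCA and GATAA. Upstream of fat-1 the only thresholded summit, at 13311855, was 3789 bp away and near the bottom of the list, with a signal of 34.9 and rank 4843. A pooled summit 1364 bp upstream of fat-1 had a signal of 25.3, rank 6744, and was below the threshold. The promoter side of fat-1 thus held only weak sites, and its strong sites lay on the fat-2 side.

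The front-end desaturases fat-4 and fat-3, which add double bonds to polyunsaturated chains, follow each other on the plus strand of chromosome IV, at 9799429-9802226 (WBGene00001396) and 9803023-9806119 (WBGene00001395), with 796 bp between them. They shared 1 thresholded summit, at 9803747 in intron 1 of fat-3, an intron of 847 bp. Its signal was 142, rank 474, with 52.8 and rank 778 in replicate 1's list and 91.3 and rank 351 in replicate 2's. It lay 724 bp downstream of the most upstream fat-3 start, 771 bp upstream of the second fat-3 start and 1521 bp past the 3′ end of fat-4. It held GAGAGA and GATAA. The next strongest pooled summits, both just below the threshold, lay 105 bp upstream of the fat-3 start, with a signal of 32.2 and rank 5292, and in a fat-4 intron, with 31.9 and rank 5368. The summit in fat-4 was 258 bp upstream of the last annotated fat-4 start. It ranked 4443 in replicate 2's list and 6810 in replicate 1's, so fat-4 counted as bound with replicate 2's own strongest peaks and not with replicate 1's.

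The last group, fat-5, fat-6 and fat-7, are the enzymes that place the first double bond in saturated chains: fat-5 acts mainly on palmitic acid, and fat-6 and fat-7 mainly on stearic acid. Near fat-6 (WBGene00001398, chrIV:11913692-11915687, minus strand) there were 4 thresholded summits, all of middle or low rank. The site nearest its most upstream start, at 11915965, was 278 bp upstream of it and also 18 bp inside ZK822.9, a gene that runs the other way. Its signal was 36.7, rank 4595. A site in intron 2 of fat-6, at 11914905, was 234 bp upstream of an internal start and had a signal of 51.3, rank 3120. Downstream of the gene, 2 summits at 11910023 and 11908957 lay 3669 and 4735 bp past its 3′ end, with signals of 51.0 and 59.5. Both were nearer to the start of VZK822L.2, a gene between them and fat-6 that is transcribed towards fat-6. The windows of these 2 summits, printed above, matched at 72 of 107 aligned columns (67.3%). That was the highest of the 78 pairs among the 13 windows outside fasn-1, where the median was 49.6% and the second highest 54.5%. This pair was singled out after its values were seen.

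The palmitoyl desaturase gene fat-5 (WBGene00001397, chrV:17725004-17726818, plus strand) had 1 thresholded summit, 1641 bp upstream of its start at 17723363. The summit was just outside the window used for calls. Its signal was 36.9, rank 4561, with 22.8 and rank 4393 in replicate 2's list and 10.3 and rank 9880 in replicate 1's. In the pooled list, 2 further summits near fat-5 had signals of 7.48 and 6.77, near the lowest value of that list, 4.86.

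For fat-7 (WBGene00001399, chrV:7151353-7153146, minus strand) no summit lay within 5 kb in any of the 4 lists, which was so for 19.0% of all genes. The stretch without a summit around it was long in each list: 107 kb in the thresholded list, 104 kb in the pooled list, 69.7 kb in replicate 1's list and 101 kb in replicate 2's. In the pooled list, 46 of 29994 intervals between neighbouring summits were at least as long, and the median interval was 1002 bp. The nearest pooled summit was 43511 bp away. Within 50 kb of fat-7 the pooled list held 2 summits, against a genome average of 30.5 for such a window. Reads that match 2 places can be lost in mapping, so the sequence was checked for repeats. Of the 31-base words in fat-7 with its flanks of 5 kb, 94.3% occurred once in the genome, and fat-1, with 3 thresholded summits, had 93.2%. The rest of the long stretch without a summit was not checked for repeats. In all, 27 of the 1966 words of fat-6 were shared with fat-7. The part of read mapping in the gap around fat-7 was not tested.

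The regulator gene sbp-1 (WBGene00004735, chrIII:11428367-11442566, minus strand) had no thresholded summit within 5 kb, and the nearest was 21400 bp away. Of its 5 pooled summits, the strongest 2 lay 2366 and 2582 bp upstream of the start, with signals of 27.2 and 24.1 and ranks 6270 and 7113. Replicate 2's list had a single peak at this place, with a signal of 25.8 and rank 3783. It lay 25 bp from the farther of the 2 summits and 191 bp from the nearer. Replicate 1's peak, with a signal of 14.5 and rank 6459, lay 29 bp from the nearer summit. At the farther summit replicate 1 had no peak within 200 bp. Inside sbp-1 and its flanks 67.9% of the 31-base words occurred once in the genome, the lowest share of the 10 genes, and within the gene itself 48.1%. The part of this in the count for sbp-1 was not tested.

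**Figure D2:**
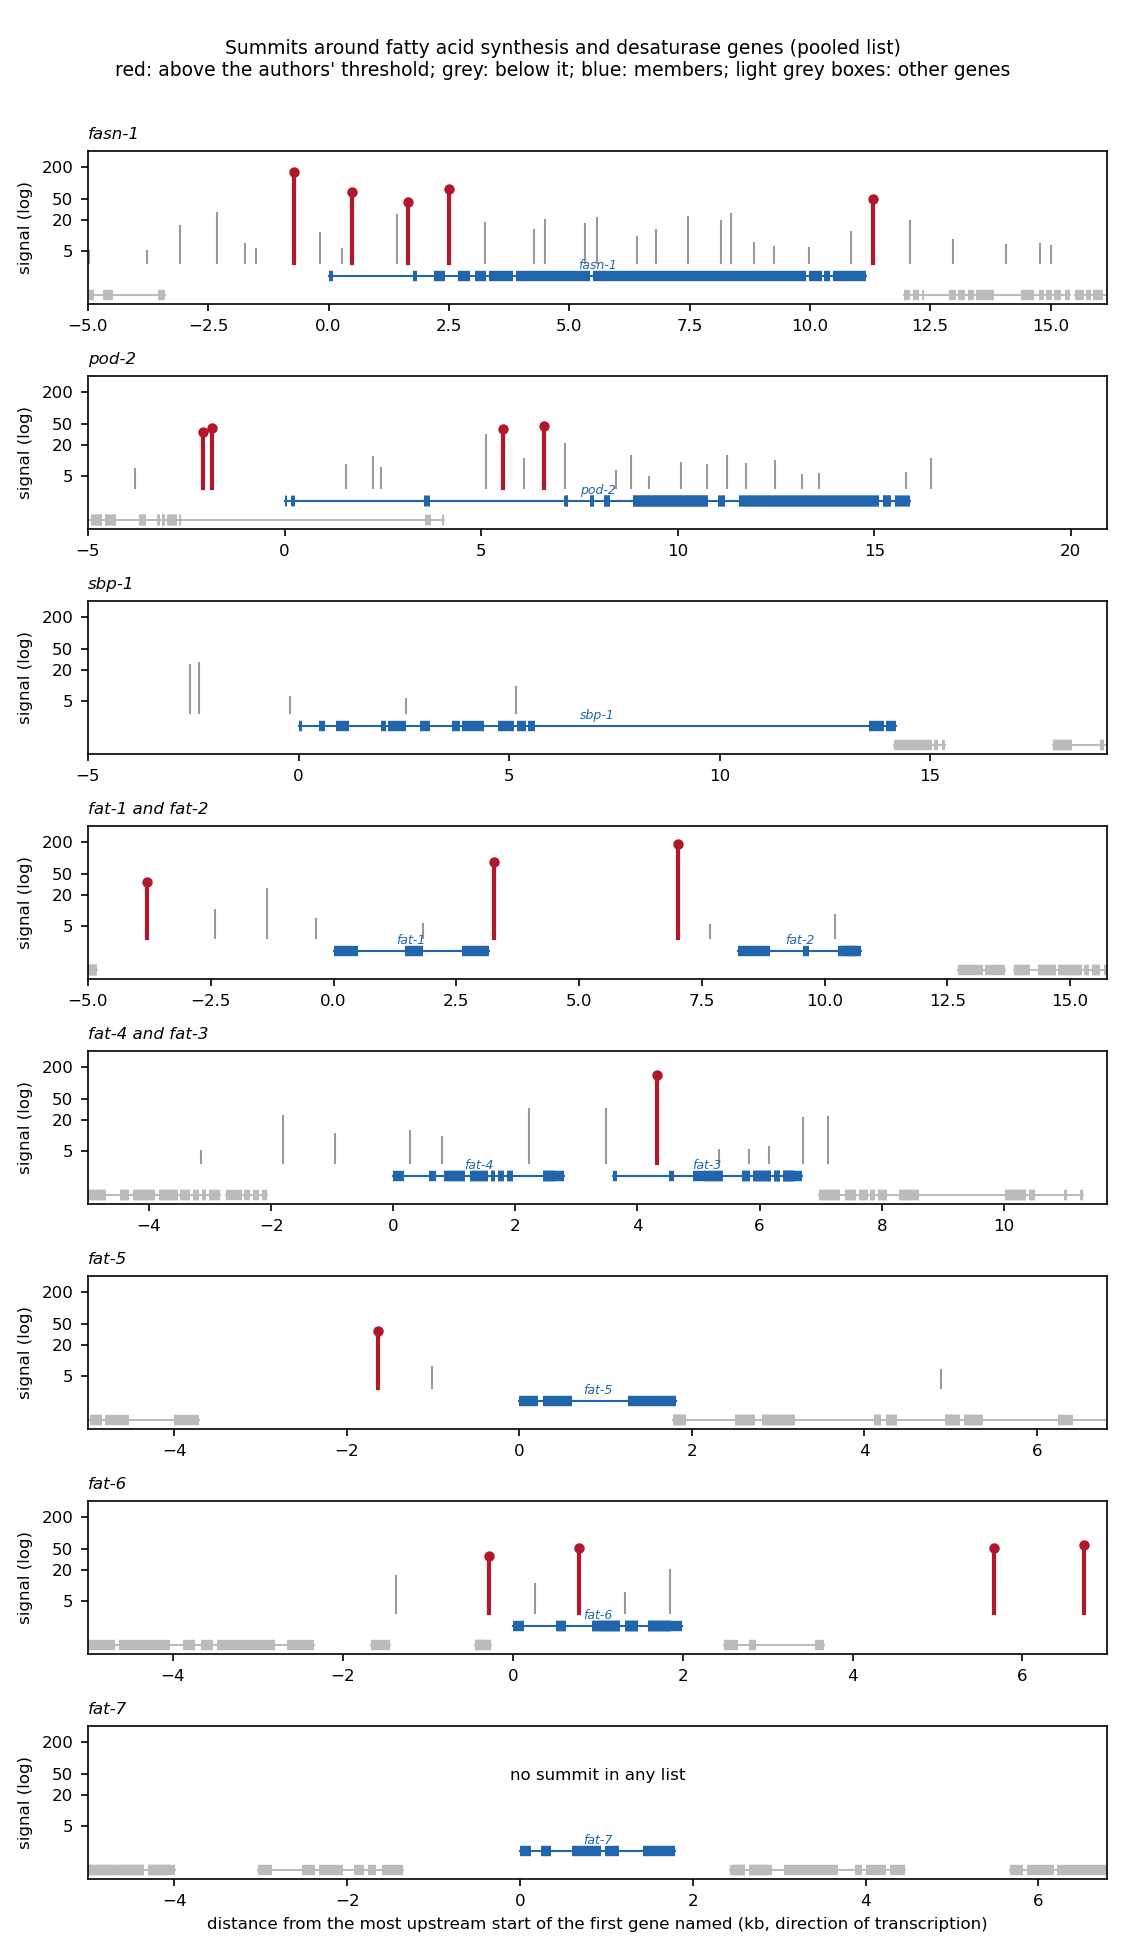
Signal of pooled-list summits (y axis, log scale) against distance from the most upstream start of the first gene named in each panel (x axis, kb, in the direction of transcription), with thresholded summits in red, weaker ones in grey, the described genes in blue and other genes as light grey boxes. The tallest red line, signal 187, stands between fat-1 and fat-2, and the red line of fat-3 and fat-4 stands in the first intron of fat-3. The fat-7 panel holds no summit line.

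Each of the 18 summits was then followed in the lists of the single replicates. A replicate summit within 200 bp was found in both lists for 17 of the 18, against 98.2% of all thresholded summits. The exception was the pod-2 site at 1134723, which had no counterpart in replicate 1's list. Its counterpart in replicate 2's list was the same peak as that of the site at 1134929, so replicate 2 does not separate these 2 sites. Both replicate lists run deep, with 30000 and 27191 peaks, so presence alone asks little. Among the strongest 4944 peaks of each replicate, 14 of the 18 had a counterpart in both, against 68.9% of all thresholded summits. There were 15 with a counterpart among replicate 1's strongest and 17 among replicate 2's, and no summit was without one in both. The 4 with a counterpart among the strongest of 1 replicate alone were the fat-5 site, the fat-6 start site, the upstream fat-1 site and the pod-2 site at 1134723.

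The strongest 3 sites kept high ranks in both replicates, and the site upstream of fasn-1 was rank 315 in replicate 1 and 445 in replicate 2. Lower sites varied in how near the replicates stood. The fat-5 site was rank 9880 in replicate 1 and 4393 in replicate 2, and the fat-6 start site was rank 6726 in replicate 1 and 4233 in replicate 2. The weaker site in intron 1 of fasn-1 was rank 3736 in replicate 1 and 3432 in replicate 2. The replicate 1 peak lay 15 bp from this summit and the replicate 2 peak 139 bp from it. That replicate 2 peak was nearer, at 81 bp, to a pooled summit below the threshold at 8985109, where replicate 1 had no peak within 200 bp. Replicate 1 had a further peak in this intron, at 8985362, with a signal of 29.9 and rank 2348. Replicate 2 had no peak within 200 bp of it. Past the 3′ end of fasn-1 replicate 1 had 2 peaks within 200 bp of the summit, a nearer one at rank 10135, 50 bp away, and a stronger one at rank 3433, 165 bp away, and replicate 2 had 1 peak, at rank 3945. Read counts are not part of these lists. The depth of each replicate is therefore unknown, and no error is given for a signal value.

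**Figure D3:**
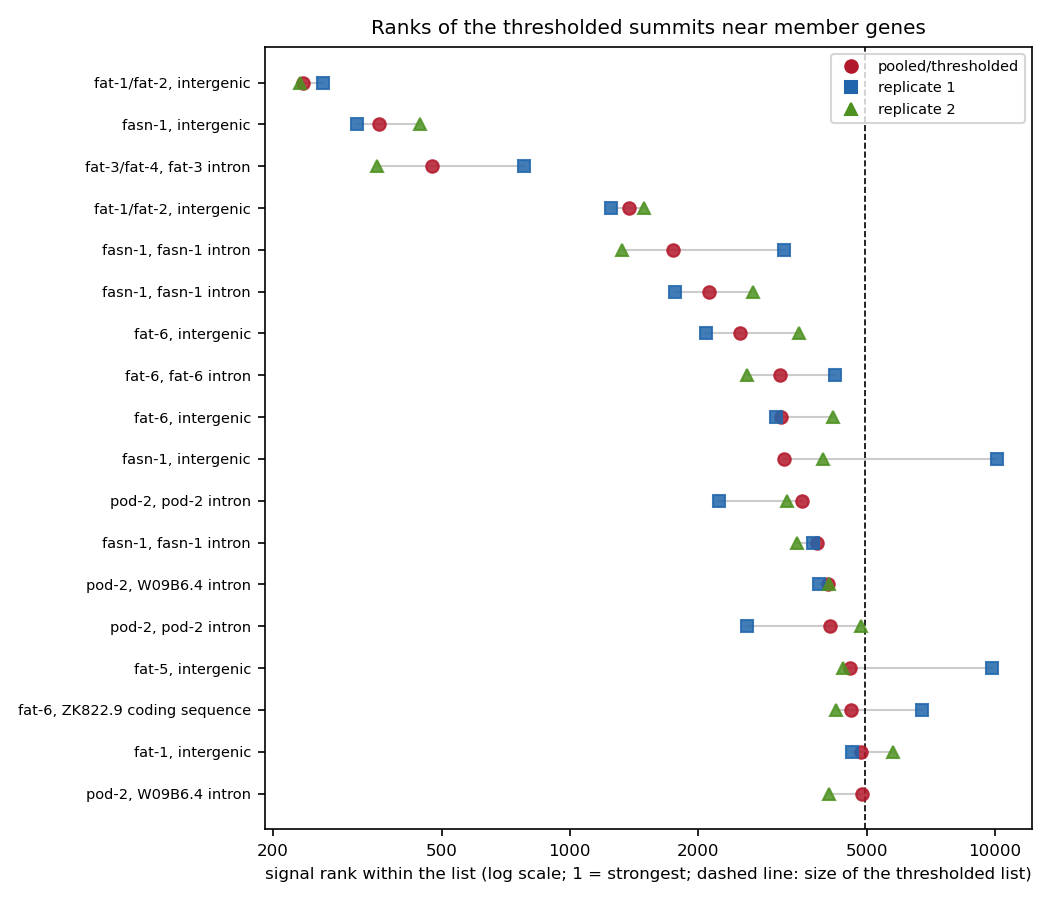
Rank of each of the 18 thresholded summits (rows, with the genes within 5 kb and the location) in the thresholded list (red circles) and of the nearest peak within 200 bp in replicate 1's list (blue squares) and replicate 2's list (green triangles), on a log axis where 1 is strongest. The upper 3 rows keep ranks from 232 to 778 in both replicates, while the fat-5 row reaches 9880 in replicate 1. The square at 10135 is the nearer of 2 replicate 1 peaks past the end of fasn-1.

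Short strings were counted within 50 bp of the summits, on both strands. AGGTCA or GGGTCA occurred at 3 of the 18 summits, against 11.0% of all thresholded summits. These were the site upstream of fasn-1, the weaker intron site of pod-2 and the site past the 3′ end of fat-1. GAGAGA occurred at 4 of the 18, at fat-3, at 2 fat-6 sites and far upstream of fat-1, against 26.5% of all. GATAA occurred at 9 of the 18, against 23.4% of all. Its count changed with the window: within 25 bp it was 2 of the 18, 11.1% against 11.6% of all, and within 100 bp it was 10 of the 18, 55.6% against 41.4% of all. At the 76 pooled summits near these genes below the threshold, GATAA occurred at 18, or 23.7%, against 22.8% of all such summits. CANNTG, the E-box pattern that SREBP-type factors are known to contact, occurred at 5 of the 18, against 39.6% of all. A run of TTTTTTTT occurred at none, against 4.33% of all. AGGTCA and GGGTCA differ in their first base alone and were counted together above. Taken singly, AGGTCA occurred at 2 of the 18, against 7.2% of all, and GGGTCA at 1, against 4.05% of all. The other strings were counted separately, and a summit can count for several. GATAA, the E-box pattern and the run of T were added after other values were seen. A match is a description of the letters only.

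Other genes of the pathway were read in the same way. Of 26 such genes, 13 were bound in the promoter window, to be read beside the 19.4% of all genes, and 20 had a thresholded summit within 5 kb, to be read beside 42.5% of all genes. With only the summits ranked above the middle of the list, 3 of the 26 were bound, beside 11.4% of all genes. The 26 genes were chosen with earlier results of these data known. Among the 12 elongation genes 5 were bound: elo-1, elo-3 and elo-4, which encode elongases, and let-767 and hpo-8, which encode a reductase and a dehydratase of chain elongation. Their sites ranked between 2817 and 4358. The peaks nearest these sites ranked from 2365 to 13167 in replicate 1, with let-767 at 13167, and from 2970 to 5517 in replicate 2. Among 4 genes of acetyl-CoA supply and carboxylase partners 3 were bound, the ATP-citrate lyase genes acly-1 at rank 2073 and acly-2 at rank 3760, and the malonyl-CoA decarboxylase gene mlcd-1 at rank 4548. Of 2 cytochrome b5 genes, which pass electrons to desaturases, cytb-5.1 was bound at rank 1657, with rank 1656 in replicate 1 and 1777 in replicate 2.

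Of 8 regulators 4 were bound, to be read beside the 19.4% of all genes. The strongest site was that of nhr-49, a nuclear receptor that raises expression of fat-7 and other desaturase genes: its signal was 117, rank 739, at 345 bp upstream of a start, with rank 642 in replicate 1 and 923 in replicate 2. The other bound regulators were the receptor gene nhr-66 at rank 3818, the membrane fluidity sensor gene paqr-2 at rank 4292 and its partner iglr-2 at rank 4716. In the same order, the peaks nearest these sites ranked 5084, 4444 and 12743 in replicate 1 and 4741, 5507 and 4107 in replicate 2. The mediator subunit gene mdt-15 had 4 thresholded summits within 5 kb but none in its promoter window. The receptor genes nhr-80 and nhr-13, and scp-1, the homologue of the SREBP escort protein, had none within 5 kb. The strongest promoter site of each of the 13 bound genes ranked below the strongest sites of fasn-1, fat-2 and fat-3, at 355, 235 and 474. The strongest promoter sites of pod-2 and fat-6, at ranks 3515 and 3120, ranked below those of nhr-49, cytb-5.1, acly-1 and hpo-8.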

How the data were processed

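The values are ChIP-seq peak lists for eGFP-NHR-23 in 2 biological replicates of L3 larvae, deposited on ce11. Each deposited peak carries the authors' signal value, which was used only to describe and rank peaks within a list. According to the deposited text files, the authors called peaks in the single replicates and in the pooled reads, each time with a control, and made the thresholded list by an irreproducible discovery rate procedure. Its 4944 peaks are the 4944 strongest of the pooled list. The aligner, the peak caller, the threshold and their versions were not given in the sources used here.

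Summits were placed on Ensembl release 115 gene models (WBcel235) with Python 3.11.15 and numpy 2.4.6, and windows were aligned with Biopython 1.88. Most thresholded peaks (58.8%) are 324 bp wide with the summit at their midpoint, which limits its precision. Each of the 10 genes is described, and other genes are named where they are bound pathway genes or own the start nearest a summit; mdt-15, nhr-80, nhr-13 and scp-1 were named after their values were seen. The functions were tested on simulated data. With 1 group there was no test between groups. Members and lists were chosen with earlier results of these data known. Alternatives were each replicate's strongest 4944 peaks, the upper part of the thresholded list, the whole pooled list and other windows.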

Additional observations from a re-analysis of the deposited data

How the results depend on the processing

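No paired analysis was possible because the replicates form 1 group. When the thresholded list was replaced by the strongest 4944 peaks of a single replicate, 7 to 9 of the 10 genes had a summit within 5 kb, 5 or 6 were bound, and the bound pathway genes numbered 8 to 10, against 13. Of all genes, 40.9% to 42.5% then had a summit within 5 kb and 18.3% to 19.3% were bound. Replicate 2 alone added sbp-1 within 5 kb and fat-4 as bound, and replicate 1 alone lost fat-5. The rank of the strongest summit ran over the replicates from 2241 to 3246 for pod-2, from 351 to 778 for fat-3 and fat-4, and from 4393 to 9880 for fat-5. Summits ranked above the middle of the list left 5 genes and 6 summits within 5 kb, 3 bound genes and 3 bound pathway genes, with 11.4% of all genes bound. The whole pooled list gave 94 summits, 9 bound genes and 23 bound pathway genes, with 42.2% of all genes bound. With a window of 500 bp on each side, 2 genes (fasn-1 and fat-6) and 6 pathway genes were bound, against 13.8% of all genes, and with the most upstream start alone, an alternative chosen after seeing the data, 3 genes were bound. With 3000 bp upstream, 6 genes were bound, fat-5 being added, against 24.8% of all genes. AGGTCA or GGGTCA occurred at 6 of the 18 summits within 100 bp, 33.3% against 19.1% of all, and at 9 of the 94 pooled summits, where those below the threshold had 7.89% against 5.84% of all. GAGAGA occurred at 2 within 25 bp, 11.1% against 14.9% of all, at 9 of the 18 within 100 bp, against 39.6% of all, and at 12 of the pooled summits, where those below the threshold had 10.5% against 9.14% of all. GATAA occurred at 2 within 25 bp and 27 of the pooled summits. The cause of these changes was not tested, beyond the smaller or larger sets used. The lists hold no read counts, so depth limits cannot be given.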
